A study of Mus musculus with 24 samples.

Results

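Tissue factor, the coagulation genes around it and the activators of plasminogen were followed in mammary tumors as 9 genes: F3, Vwf, Thbd, Tfpi, Procr, F13a1, Plat, Plau and Plaur. They were taken by name among the non-control probes of the arrays, which gave 14 of 39429 probes. Of these, 13 passed a filter on low signal that 27278 probes passed, and the brightest probe of each gene entered the tests, so all 9 genes were measured among 20940. The probe left out was the dimmer of the pair for F13a1, which was well above background in the tumor channel on 7 of 24 arrays.

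The 24 tumors arose in female BALB/c mice given the carcinogen DMBA, each on its own 2-color array beside a reference RNA pooled from 11 mouse cell lines. Mice ate a low-fat diet (LFD) or one rich in saturated fat of animal origin (HFD) from around puberty, or were switched in adulthood from low to high fat (LFD-HFD) or from high to low (HFD-LFD), and each tumor is labelled early or late by its onset after the carcinogen. The early tumors were 3 HFD and 3 HFD-LFD, and the late tumors were 5 LFD, 6 HFD, 4 LFD-HFD and 3 HFD-LFD. No early tumor came from LFD or LFD-HFD mice, so the comparison of early with late over all 24 tumors also mixes diets. The labels do not say whether tumors came from separate mice, and p-values then measure only the spread between these tumors. These were whole tumors, in which fewer cells of a type and less RNA per cell cannot be told apart.

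Tissue factor is the membrane receptor that binds factor VII and starts the clotting cascade, and it is expressed by epithelia and by many carcinomas. The cascade is held back by tissue factor pathway inhibitor and by the protein C system on endothelium, in which thrombomodulin and the endothelial protein C receptor turn thrombin from a clotting enzyme into an activator of protein C. Fibrin is cross-linked by factor XIII and dissolved by plasmin, which the tissue-type and urokinase-type activators release from plasminogen.

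Values are log2 ratios of tumor to reference, so that 1 unit is a doubling. The sample labels place the tumor in Cy5 and the reference in Cy3, whereas the study's methods give the opposite, and the signals settled the direction used here, which opposes the methods. On 17 arrays without damaged rows, signals varied between arrays with a median SD of 0.604 (log2) in Cy5 and of 0.255 in Cy3, and a common reference should vary less. The probes of the Y-linked genes Ddx3y and Eif2s3y were well above background in Cy3 on 24 arrays and in Cy5 on 0. On the 4 arrays of slide 6 and the 3 of slide 7, all of late tumors, Cy5 was dimmed in a block of rows that held 18.3% to 22.6% of the spots, and those spots were left missing. Procr and Plau were therefore not measured on slide 6 (20 tumors left), nor F13a1 and Plat on slide 7 (21 tumors left). The other 5 genes were measured in all 24 tumors. Of the 9 probes used, each was well above background in the tumor channel wherever it was measured, and none was saturated.

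The promoters of F3 and Procr are shown because these are the members lower in early tumors for which a window was at hand. Each run is the 250 bases before the RefSeq start site, 5′ to 3′, with matches to 4 motifs in capitals: TATAAA (the TATA box), GGGCGG (the GC box), CCAAT and TGANTCA (the AP-1 element), searched on both strands. The F3 window is chr3:121723287-121723536 and that of Procr chr2:155750967-155751216, both on the plus strand of GRCm38.p6.
F3: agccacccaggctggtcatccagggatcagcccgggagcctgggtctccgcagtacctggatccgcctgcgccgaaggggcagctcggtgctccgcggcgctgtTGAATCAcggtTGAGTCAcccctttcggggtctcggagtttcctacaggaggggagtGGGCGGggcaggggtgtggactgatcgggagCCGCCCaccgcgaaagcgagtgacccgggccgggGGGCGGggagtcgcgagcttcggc
Procr: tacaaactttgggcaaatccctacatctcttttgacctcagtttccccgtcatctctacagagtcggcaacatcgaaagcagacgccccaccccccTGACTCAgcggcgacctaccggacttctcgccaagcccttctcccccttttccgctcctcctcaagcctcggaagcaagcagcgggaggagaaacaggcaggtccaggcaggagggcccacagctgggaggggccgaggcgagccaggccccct
The F3 window held TGANTCA at 2 places, 146 to 140 and 135 to 129 bases before the start site, and GGGCGG at 3 places, 1 of them on the minus strand. The Procr window held TGANTCA once, 154 to 148 bases before the start site, and none of the other motifs. Plaur, which did not pass between early and late tumors, also had TGANTCA in its window, 69 to 63 bases before the start site. The windows of Tfpi and F13a1 had no TGANTCA, and the other members had no window. Among 32851 windows of the same length, 6.75% held TGANTCA, 32.7% GGGCGG, 33.8% CCAAT and 12.4% TATAAA. The F3 window was 70% G and C with 24 CpG, and the Procr window 61.6% with 13. A match is a stretch of letters, not evidence of binding.

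F3, the gene of tissue factor, was the member with the largest difference between early and late tumors. Its probe lies at chr3:121437717-121437776 (mm9, plus strand). In early HFD tumors the log2 ratio was -2.89 in MSU_768, -2.23 in MSU_97 and 0.44 in MSU_163, and in early HFD-LFD tumors it was -2.52 in MSU_51, -2.36 in MSU_54 and -1.73 in MSU_62b. In the 18 late tumors it ran from -2.12 through a median of 1.19 to 2.77. All early tumors but MSU_163 lay below every late tumor except the late HFD tumor MSU_96, and no early tumor reached the late median. Early tumors averaged -1.88 ± 1.20 (SD, n = 6), whereas late tumors averaged 1.07 ± 1.32 (SD, n = 18). The log2 difference was -2.95 (SE 0.58), or 7.74-fold lower in early tumors (limma, adjusted p = 0.00194). F3 was 1 of 3 members that passed the test between early and late tumors, all lower in early ones, while 17.8% of all genes tested passed it and 10.9% were lower. At an unadjusted p under 0.05 there were 4, with Thbd, against 33.8%. No member separated early from late tumors without overlap (0 of 9), which 0.735% of all genes did. By size of difference, F3 stood at percentile 99.8 of all genes.

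Among late tumors, F3 was highest in LFD-HFD, at 1.05, 2.20, 2.51 and 2.77, with a mean of 2.13 ± 0.76 (SD, n = 4). LFD tumors gave -0.20, 0.33, 1.04, 2.12 and 2.13, with a mean of 1.08 ± 1.05 (SD, n = 5). HFD-LFD tumors gave -0.83, 0.85 and 2.36 (mean 0.79 ± 1.60, SD, n = 3), and HFD tumors ran from -2.12 through a median of 0.99 to 1.80 (mean 0.49 ± 1.51, SD, n = 6). LFD-HFD stood above LFD by 1.05, just over the larger of both SDs, and the limma test did not pass (SE 0.80, adjusted p = 0.511). LFD, HFD-LFD and HFD were closer to each other than their SDs. The next step down, 2.05 from late to early HFD tumors, exceeded the larger SD of 1.76. A probe of F3 placed upstream, whose match spans 738 bases of the genome (chr3:121434609-121435346), was measured in 20 tumors and gave a difference of -2.07 (SE 0.48, limma, adjusted p = 0.00779 over 27278 probes). The probes had a correlation of 0.940 over those tumors. MSU_96, the late tumor at -2.12 for the first probe, was not among them, nor were MSU_24, MSU_28 and MSU_93.

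Vwf encodes von Willebrand factor, the large multimer stored in endothelial cells and platelets that tethers platelets to damaged vessels and carries factor VIII. The Vwf probe maps to chr6:125636551-125636610 (mm9, plus strand). The early tumors were tightly grouped, with -3.55, -3.25 and -2.19 in HFD and -3.03, -2.94 and -2.76 in HFD-LFD. The late tumors spread from -3.08 through a median of 0.06 to 2.05. LFD tumors fell into a high and a low part, with 2.05, 1.61 and 0.74 in MSU_105, MSU_34 and MSU_122a against -2.95 and -3.08 in MSU_137 and MSU_28. The late HFD-LFD tumors gave -2.02, -1.59 and 0.95, the late LFD-HFD tumors ran from 0.05 to 1.44, and the late HFD tumors from -2.26 through a median of -0.35 to 0.47. The early and late tumors overlapped, but no early tumor lay above the late median. Early tumors averaged -2.95 ± 0.46 (SD, n = 6), whereas late tumors averaged -0.30 ± 1.56 (SD, n = 18), 6.30-fold lower in early ones (log2 difference -2.66, SE 0.62, limma, adjusted p = 0.00616). An upstream probe (chr6:125542106-125542165) gave -2.60 (SE 0.78, adjusted p = 0.0255), with a correlation of 0.948 to the first over 23 tumors.

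**Figure D1:**
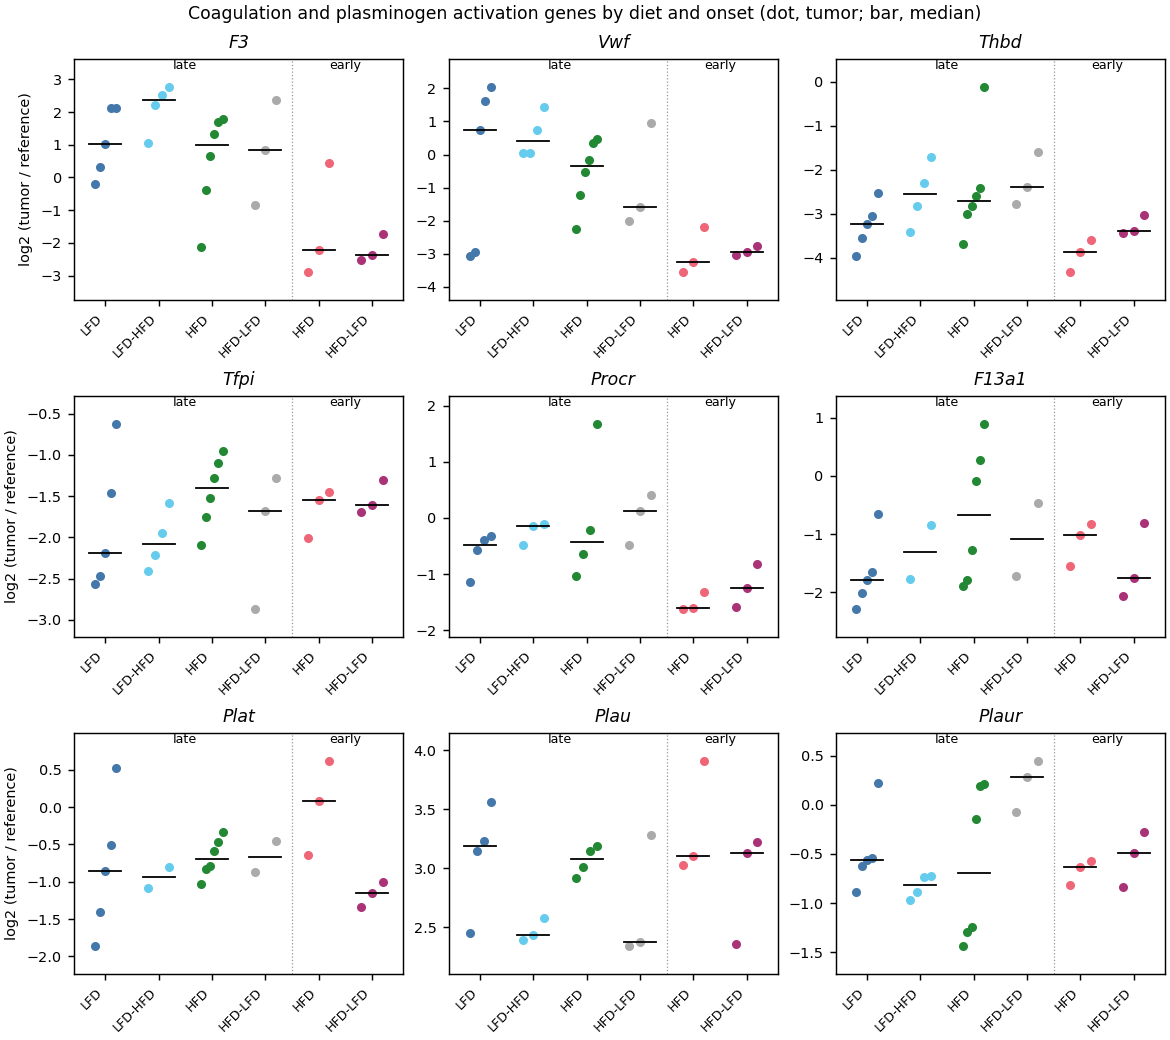
Log2 ratio of tumor to reference (y axis) of the 9 genes in each tumor by diet and onset (x axis), with a bar at the group median and a dotted line between late and early groups. Early tumors sit low for F3 (medians -2.23 and -2.36) and Vwf (medians -3.25 and -2.94), whereas Plau is high in every group, between 2.34 and 3.91.

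F3 and Vwf rose and fell together from tumor to tumor. Over 24 tumors Pearson's r was 0.852 and Spearman's rho 0.862 (permutation p = 1e-05 for each, the smallest that 100000 resamples give, adjusted p = 0.00018 and 0.00036 over 36 pairs of members). Without MSU_768 and MSU_51, the tumors farthest from the median of F3, r was 0.824, and within the 18 late tumors it was 0.752 (permutation p = 0.0004). It was 0.838 in the first scan session (n = 11), 0.957 in the second (n = 6) and 0.803 in the third (n = 7). Of the 4 late tumors with the lowest Vwf, MSU_96 stood at -2.26 for Vwf and -2.12 for F3, MSU_59b at -2.02 and -0.83, MSU_137 at -2.95 and -0.20, and MSU_28 at -3.08 and 0.33. All 4 lay below the late median of F3, MSU_28 by the least.

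F3 also followed the luminal epithelium list, 12 markers of the hormone-responsive and secretory cells that line mammary ducts (11 tested). Against the mean log2 ratio of that list, r was 0.837 and rho 0.864 over 24 tumors (permutation p = 1e-05, the smallest possible, adjusted p = 0.00045 and 0.000225 over 45 pairs of member and list). The relation was tighter without MSU_51 and MSU_86, the tumors farthest from the median of the list (r = 0.933, n = 22). It was 0.761 in late tumors (n = 18) and 0.754, 0.991 and 0.849 in the 3 scan sessions (n = 11, 6 and 7). MSU_163, the early tumor with high F3, had a list mean of 2.25, and the other 5 early tumors had -0.14 to 0.40. For Vwf, r against the luminal list was 0.729 and rho 0.838 (adjusted permutation p = 0.0009 and 0.000225), with 0.604 in late tumors and 0.585, 0.943 and 0.884 in the sessions. Both genes fell as the squamous epithelium list rose. That list holds keratins and envelope proteins of stratified epithelium, and r was -0.694 for F3 (rho -0.744, adjusted permutation p = 0.0018) and -0.597 for Vwf (rho -0.671, adjusted p = 0.0159). Without MSU_59b and MSU_86 these were -0.803 and -0.781, within late tumors -0.610 and -0.460, and in the sessions -0.706, -0.927 and -0.634 for F3 and -0.578, -0.934 and -0.598 for Vwf. Against the endothelium list of 12 vessel markers, which does not contain Vwf, the correlation of Vwf was lower and did not pass (r = 0.453, rho = 0.505, permutation p = 0.0264 for r, adjusted p = 0.0791). By rho it did pass (adjusted p = 0.0383), as it did for r without the 7 arrays that had dimmed rows (r = 0.630, adjusted p = 0.0384). With median centring r was only 0.044 (adjusted permutation p = 0.877), and with the scanner log ratio 0.392 (adjusted p = 0.157). Without MSU_122a and MSU_84 r was 0.381, within late tumors 0.320, and in the sessions it was 0.501, 0.945 and -0.141. F3 stood much the same against that list (r = 0.463, adjusted permutation p = 0.0778, rho = 0.517, adjusted p = 0.0372). Its r was 0.671 without the 7 arrays that had dimmed rows (adjusted permutation p = 0.0267) and 0.320 within late tumors. For F3, r was 0.245 with median centring (adjusted permutation p = 0.399) and 0.418 with the scanner log ratio (adjusted p = 0.126). The mean of a list was taken over the genes measured in a tumor, so the arrays of slides 6 and 7 lack the list genes that lay in their dimmed rows.

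**Figure D2:**
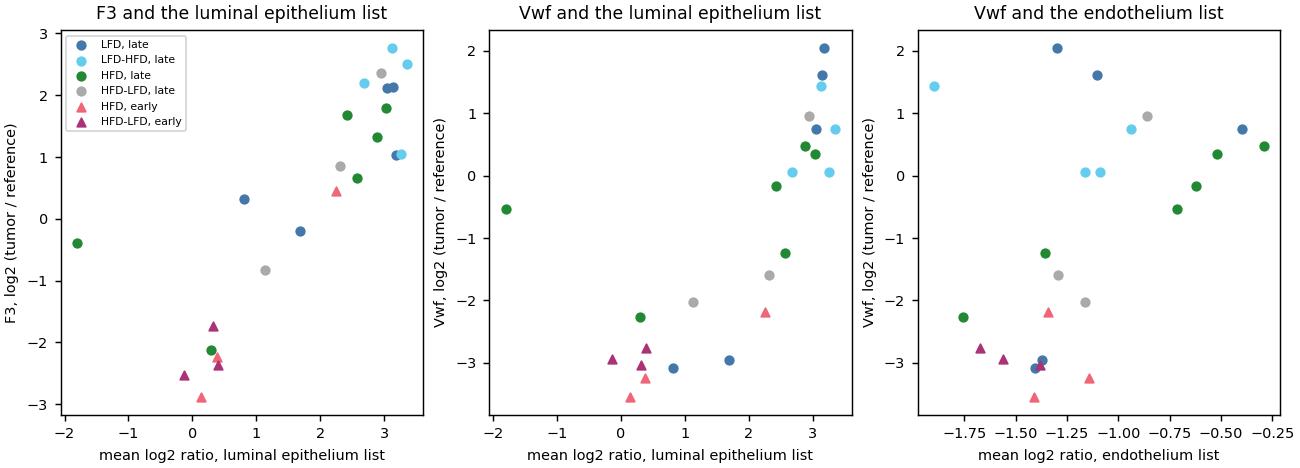
Log2 ratio of F3 (left) and Vwf (middle) against the mean log2 ratio of the luminal epithelium list, and of Vwf against the endothelium list (right), with circles for late and triangles for early tumors, colored by diet. F3 and Vwf climb with the luminal list (r = 0.837 and 0.729), with MSU_86 alone at the far left, and Vwf scatters against the endothelium list (r = 0.453).

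Members of these lists were also compared by onset. Over all genes 17.8% passed, 10.9% were lower in early tumors, and 33.8% had an unadjusted p under 0.05. Of the 11 luminal markers tested, 5 were lower in early tumors and none was higher: Krt19, Esr1, Prlr, Foxa1 and Gata3. The keratins Krt8 and Krt18 differed by -1.82 (limma, adjusted p = 0.110) and -1.80 (adjusted p = 0.143). The list mean ran from -0.14 to 2.25 in early and from -1.80 to 3.35 in late tumors. Of the 11 squamous markers tested, 0 passed and 11 were above 0, with a median difference of 1.30, and 5 had an unadjusted p under 0.05 (Krt6a, Ivl, Sbsn, Dsg3 and Krtdap). The squamous list mean was -1.63 to 0.90 in early and -3.41 to 2.99 in late tumors. Of 12 endothelial markers, 11 were below 0, with a median difference of -0.44. Cldn5 and Plvap passed as lower in early tumors, a share of the list near that of all genes. Pecam1 and Cdh5, named after their values were seen, differed by -0.05 (SE 0.18) and -0.27 (SE 0.26). The endothelial list mean was -1.67 to -1.14 in early and -1.90 to -0.29 in late tumors. Of 5 platelet markers tested 0 passed, and Gp9 alone had an unadjusted p under 0.05 (-0.42, SE 0.15). Of 8 proliferation markers, 6 were higher in early tumors, where their mean was 0.12 to 0.86 against -1.45 to 0.83. The part of these lists in the results for F3 and Vwf was not tested.

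The protein C system on the cell surface was represented by Thbd and Procr. Procr encodes the endothelial protein C receptor, which presents protein C to thrombomodulin and is also found on mammary epithelial cells. Its probe lies at chr2:155580945-155581004 (mm9, plus strand). Early HFD tumors gave -1.62, -1.60 and -1.32 and early HFD-LFD tumors -1.58, -1.25 and -0.81. The 14 late tumors measured ran from -1.14 through a median of -0.36 to 1.67, the highest being the HFD tumor MSU_86. Among these 14, only MSU_137 (LFD) and MSU_62a (HFD), at -1.14 and -1.03, reached into the early range. The late tumors MSU_24, MSU_28, MSU_93 and MSU_96 were not measured for Procr, so their overlap with early tumors is unknown. Their Vwf was 1.44, -3.08, -1.23 and -2.26 in that order. Early tumors averaged -1.36 ± 0.31 (SD, n = 6), whereas late tumors averaged -0.24 ± 0.69 (SD, n = 14), 2.18-fold lower in early ones (log2 difference -1.13, SE 0.28, limma, adjusted p = 0.0105). With the dimmed spots of slide 6, all of late tumors and low in Cy5, kept as measured, the difference shrank to -0.31 (adjusted p = 0.798). With median centring it was -0.67 (adjusted p = 0.0683), where the median over all genes was 0.21.

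Thbd encodes thrombomodulin, the thrombin receptor of endothelium and of some squamous epithelia. The Thbd probe maps to chr2:148230235-148230294 (mm9, minus strand). All tumors were below the reference for this probe. The early tumors gave -4.32, -3.87 and -3.58 in HFD and -3.43, -3.40 and -3.04 in HFD-LFD, and the late tumors ran from -3.97 through a median of -2.80 to -0.11 in MSU_86. No early tumor lay above the late median, but the difference of -0.94 (SE 0.37) did not pass (limma, adjusted p = 0.0725). It passed without MSU_105 (adjusted p = 0.0496) or without MSU_86 (adjusted p = 0.0450). LFD tumors, with a mean of -3.27 ± 0.54 (SD, n = 5), were level with early HFD-LFD tumors at -3.29 ± 0.22 (SD, n = 3).

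Thbd and Procr varied together (r = 0.838, rho = 0.743, n = 20, permutation p = 1e-05, the smallest possible, and 0.00036, adjusted p = 0.00018 and 0.00648). MSU_86 was the highest tumor for both. Without it and MSU_163, r was 0.654 (permutation p = 0.0031, n = 18). It was 0.766 in late tumors (n = 14), 0.859 in the first scan session (n = 11) and 0.746 in the second (n = 6), and the third held 3 measured tumors. With dimmed spots kept, r was 0.479 (adjusted p = 0.142). Thbd also rose with the fibroblast list of collagens and other stromal genes (r = 0.741, rho = 0.610, n = 24, adjusted permutation p = 0.0009 and 0.0139), with 0.665 without MSU_86 and MSU_62a, 0.760 in late tumors and 0.835, 0.950 and 0.771 in the sessions. Of 10 fibroblast markers, Dcn and Postn were lower in early tumors, where 17.8% of all genes passed and 10.9% were lower.

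Tfpi, the gene of tissue factor pathway inhibitor, which blocks the complex of tissue factor and factor VII, did not pass between early and late tumors. Early tumors gave -2.01, -1.55 and -1.45 in HFD and -1.69, -1.61 and -1.30 in HFD-LFD. Late tumors spread on either side of them, from -2.87 through -1.72 to -0.62. The difference was 0.18 (SE 0.25, limma, adjusted p = 0.648). The probe used lies at chr2:84273059-84273118 (mm9, minus strand). Other Tfpi probes at chr2:84281022-84281081 and chr2:84284179-84284238 gave -0.17 and 0.13 in that order, neither passing, and correlated with it at 0.513 and 0.870, so the probes of Tfpi disagreed in part. Tfpi ran against Vwf (r = -0.579, rho = -0.579, n = 24, permutation p = 0.00306 for r, adjusted p = 0.0367 and 0.0348), with -0.532 without MSU_105 and MSU_768, -0.646 in late tumors and -0.493, -0.824 and -0.667 in the sessions. This adjusted p rose to 0.130 without the 7 arrays that had dimmed rows and to 0.0760 with dimmed spots kept. Tfpi also fell with the luminal list (r = -0.559, rho = -0.563, adjusted permutation p = 0.0269 and 0.0286, -0.516 without MSU_51 and MSU_86, -0.686, -0.660 and -0.423 in the sessions). With median centring it did not pass (r = -0.445, adjusted p = 0.0975).

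F13a1 encodes the A subunit of factor XIII, the transglutaminase that cross-links fibrin, and is a marker of resident tissue macrophages. The F13a1 probe maps to chr13:36959214-36959273 (mm9, minus strand). Early tumors ran from -2.06 through a median of -1.29 to -0.80 and the 15 late tumors measured from -2.28 through -1.64 to 0.89. The late HFD tumors MSU_84, MSU_67 and MSU_93 held the highest values, 0.89, 0.27 and -0.08. Early and late tumors differed by -0.20 (SE 0.39, limma, adjusted p = 0.746). F13a1 rose with the macrophage list (r = 0.753, rho = 0.653, n = 21, adjusted permutation p = 0.0009 and 0.0139). Without MSU_84 and MSU_34 r was 0.602, in late tumors 0.837 (n = 15), in the first session 0.740 and in the second 0.846, and the third held 4 measured tumors. With dimmed spots kept, r was 0.519 (adjusted p = 0.0569). Of 12 macrophage markers, Msr1 was higher and Cd14 lower in early tumors, a share near the 17.8% of all genes that passed.

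The plasminogen activators and their receptor did not pass between early and late tumors. Plau, the urokinase-type activator, was the only member above the reference in every tumor measured, from 2.34 to 3.91. Its early tumors ran from 2.36 through a median of 3.12 to 3.91 and its 14 late tumors from 2.34 through 2.96 to 3.57, a difference of 0.26 (SE 0.21, limma, adjusted p = 0.385). Its probe lies at chr14:21662242-21662301 (mm9, plus strand). Centring on the median, which set the median of all genes at 0.21, gave 0.75 for Plau (adjusted p = 0.0343). Plaur, its cell surface receptor, ran from -0.84 through -0.60 to -0.28 in early and from -1.44 through -0.59 to 0.45 in late tumors, and differed by -0.12 (SE 0.24, adjusted p = 0.763). Its probe lies at chr7:25260569-25260628 (mm9, plus strand). The 3 late HFD-LFD tumors gave -0.07, 0.29 and 0.45 for Plaur, above all early tumors.

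Plat, the tissue-type activator that endothelium releases into blood, is given by early group. Early HFD tumors gave -0.64, 0.08 and 0.62 and early HFD-LFD tumors -1.34, -1.16 and -1.0. These groups were on different slides and in different scan sessions, and diet and slide cannot be told apart here. Over both, the early mean of -0.57 ± 0.77 (SD, n = 6) and the late mean of -0.76 ± 0.53 (SD, n = 15) differed by 0.18 (SE 0.28, limma, adjusted p = 0.674). Early minus late came to 0.69 (SE 0.37) in HFD and -0.50 (SE 0.48) in HFD-LFD, and the test of the difference between these changes did not pass (1.19, SE 0.61, adjusted p = 0.628). The probe lies at chr8:23892531-23892590 (mm9, plus strand).

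**Figure D3:**
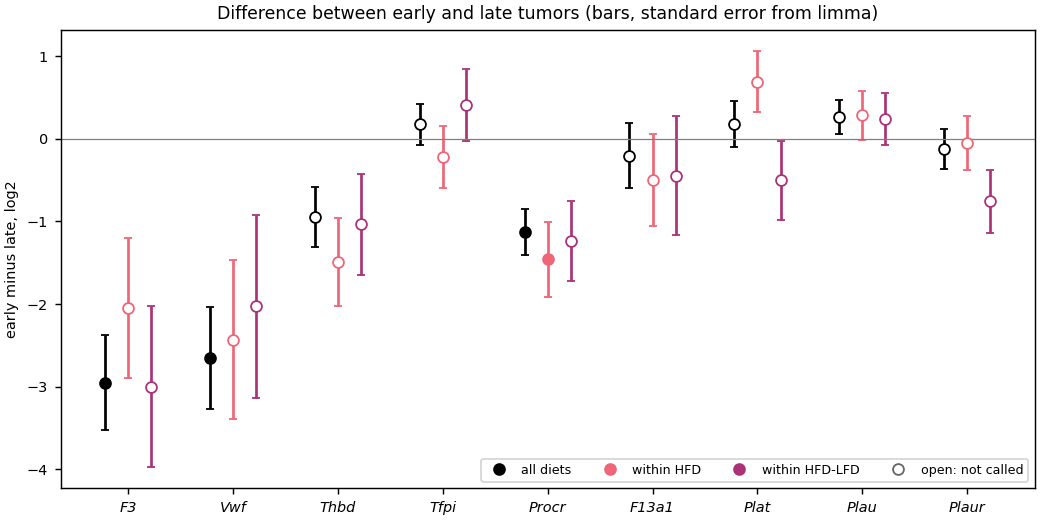
Early minus late difference in log2 units (y axis) of each gene (x axis) over all diets, within HFD and within HFD-LFD, with limma standard errors as bars and filled points where the adjusted p was under 0.05. F3, Vwf and Procr are filled over all diets (-2.95, -2.66 and -1.13), and only Procr is filled within HFD (-1.46).

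Onset was also compared within the diets that had both early and late tumors. Within each of these diets early and late tumors were on different slides, so onset and slide cannot be told apart inside a diet. Within HFD, 1 of 9 members passed, against 13.1% of all genes (7.33% lower), and 4 had an unadjusted p under 0.05, against 30.1%. The late HFD tumors MSU_93 and MSU_96 were not measured for Procr. In the tumors measured, Procr was lower in early HFD tumors, with a log2 difference of -1.46 (SE 0.45, limma, adjusted p = 0.0424), and its 3 early and 4 late tumors did not overlap, as held for 19.1% of all genes. This call was kept in 13 of 24 fits that each left out 1 tumor, and was lost without MSU_768, MSU_163, MSU_97, MSU_67, MSU_54, MSU_59a, MSU_42, MSU_45, MSU_86, MSU_51 or MSU_105, with an adjusted p of at most 0.125. The difference without the late tumor MSU_86 was -0.88 (adjusted p = 0.0504). F3 differed by -2.05 (SE 0.85, adjusted p = 0.109), Vwf by -2.43 (SE 0.96, adjusted p = 0.0950) and Thbd by -1.49 (SE 0.53, adjusted p = 0.0655). Without MSU_163 the difference of F3 within HFD was -3.05 (adjusted p = 0.0467), without MSU_96 it was -2.57 (adjusted p = 0.0258), and without MSU_768 it was -1.38 (adjusted p = 0.403). Thbd passed within HFD without MSU_96 (-1.74, adjusted p = 0.0255). Within HFD-LFD, 0 of 9 members passed, against 0.836% of all genes, and 2 had an unadjusted p under 0.05, against 15.5%. These were F3, at -3.0 (SE 0.98, limma, adjusted p = 0.141), and Procr, at -1.23 (SE 0.48, adjusted p = 0.228), which passed without MSU_86 (adjusted p = 0.0389). The early tumors of that diet lay below all its late tumors for 6 of 9 members (F3, Vwf, Thbd, Procr, Plat and Plaur), and early and late did not overlap for 34.1% of all genes. The 2 changes shared no tumors, and their difference passed for 0 members and 0% of all genes, with 0 members at an unadjusted p under 0.05, against 8.12%.

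Early tumors were on 2 slides. Slide 2 held only the early HFD tumors, and slide 4 the early HFD-LFD tumors with a single late tumor, MSU_45. With slide as a fixed block, the difference rests only on the early HFD-LFD tumors against MSU_45, as no other slide held both onsets. It was -4.72 for F3, -3.66 for Vwf and -0.73 for Procr, and 1 late tumor cannot decide whether slide matters. Within the first scan session the differences were -2.74 for F3 (adjusted p = 0.0462), -3.19 for Vwf (adjusted p = 0.0448) and -1.18 for Procr (adjusted p = 0.134). Within the second they were -4.11 (adjusted p = 0.00724), -2.95 (adjusted p = 0.0386) and -0.94 (adjusted p = 0.0658).

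Diets were compared in 4 ways, and no member passed in any (limma). The first, 9 HFD against 5 LFD tumors, mixes diet with onset, since 3 of the HFD tumors and none of the LFD tumors were early. In it 0 of 9 members passed, against 0% of all genes, and 0 had an unadjusted p under 0.05, against 4.51%. F13a1 was closest, at 0.87 (SE 0.45, adjusted p = 0.959). Among late tumors, HFD against LFD gave 0 of 9 members and 0% of all genes, with F13a1 alone at an unadjusted p under 0.05, against 8.56% (1.03, SE 0.48, adjusted p = 0.563). LFD-HFD against LFD gave 0 of 9 against 1.71%, with Plau alone at an unadjusted p under 0.05, against 18.7%, at -0.63 (SE 0.29, adjusted p = 0.255), where all 3 LFD-HFD tumors measured (2.40, 2.44 and 2.58) lay below 3 of the 4 LFD tumors. HFD-LFD against LFD gave 0 of 9 against 2.39%, with 0 at an unadjusted p under 0.05, against 17.3%, and Plaur nearest at 0.70 (SE 0.34, adjusted p = 0.291). These comparisons of late tumors share the LFD tumors.

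**Figure D4:**
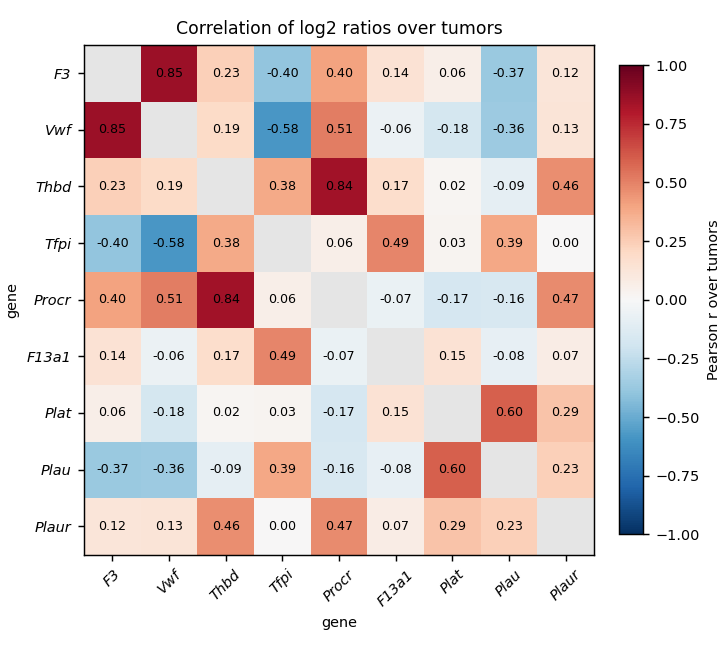
Pearson correlation of the log2 ratios of each pair of members (both axes) over the tumors in which both were measured, from -1 (blue) to 1 (red). F3 with Vwf (0.85) and Thbd with Procr (0.84) stand out, and Tfpi runs against Vwf (-0.58).

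Of the 36 pairs of members, 3 passed after adjustment, F3 with Vwf, Thbd with Procr and Tfpi with Vwf. By rho, Vwf with Procr passed as well (rho = 0.618, n = 20, adjusted permutation p = 0.0348), whereas r was 0.515 (adjusted p = 0.123). For this pair r was only 0.013 within the late tumors (n = 14), and 0.299 with dimmed spots kept (adjusted permutation p = 0.398). Plat and Plau, at r = 0.599 over 17 tumors (rho 0.277), did not (permutation p = 0.0104, adjusted p = 0.0937), and r was 0.353 without MSU_105 and MSU_97. Of the 45 pairs of a member and a marker list 7 passed, all given above. No pair with Plat, Plau or Plaur passed by r. By rho, 16 of the 45 passed, among them Plat with the endothelium list (rho = 0.553, n = 21, adjusted p = 0.0372) and with the macrophage list (rho = 0.596, n = 21, adjusted p = 0.0286), and Plau with the squamous list (rho = 0.559, n = 20, adjusted p = 0.0372).

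The genes most like each member over the tumors are given as a description, with Pearson's r. For F3 they were Fam174b (0.945, n = 21), Mapk12 (0.944, n = 21) and Rgl3 (0.943, n = 20), all lower in early tumors. For Vwf they were Nek7 (0.951, n = 24), Proc (0.943, n = 24) and Tlcd4 (0.941, n = 20), of which Proc encodes protein C. For Procr they included Serpinb5 (0.901) and Nfatc1 (0.883) over 20 tumors, and for Thbd Hoxa7 (0.954, n = 21), Tex264 (0.897, n = 21) and Elovl1 (0.890, n = 24). F13a1 was followed by Mrc1 (0.845), Mfap5 (0.823) and Vsig4 (0.814) over 21 tumors. For Tfpi they were Cd200r1 (0.881, n = 24), Cnrip1 (0.871, n = 24) and Thbs2 (0.837, n = 20), for Plat Bcam (0.875), Kctd10 (0.867) and Capzb (0.85) over 21 tumors, and for Plaur Ddx49 (0.759, n = 20), Tagln2 (0.757, n = 24) and Ppp1r15a (0.756, n = 24). The genes most like Plau included Gipc1 (0.799) and Safb (0.781) over 20 tumors.

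The wider pathway was counted over 43 other genes, of which 39 were tested. Between early and late tumors 7 of 39 passed (limma), a share near the 17.8% of all genes, with 2 higher and 5 lower and a median difference of -0.24 against -0.06 over all genes. Of 13 procoagulant factors tested, 2 were lower in early tumors. They were F11, the contact-phase factor XI, at -0.63 (SE 0.18, adjusted p = 0.0167), and Fga, the fibrinogen alpha chain, at -0.46 (SE 0.16, adjusted p = 0.0446). F7, the ligand of tissue factor, differed by -0.01 (SE 0.21). Of 7 anticoagulant factors, Proc, protein C itself, was lower by -2.03 (SE 0.57, adjusted p = 0.0175), with means of -5.58 in early and -3.55 in late tumors. Serpina10, the inhibitor of factor X that works with protein Z, was lower by -0.87 (SE 0.25, adjusted p = 0.0215). Procr, the receptor of protein C, was also lower in early tumors, whereas Thbd of the same system did not pass. A link between these differences was not tested.

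Of 11 genes of the plasminogen system tested, 2 were higher and 0 lower in early tumors, a share near the 17.8% of all genes that passed. Of the 11, 7 were below 0, with a median of -0.14. Serpine2, protease nexin, which inhibits thrombin, urokinase and tissue-type activator, was higher in early tumors by 1.25 (SE 0.33, adjusted p = 0.0128), with means of 0.94 and -0.31. S100a10, which with annexin A2 forms a cell surface receptor for plasminogen, was higher by 0.69 (SE 0.18, adjusted p = 0.0123). Its partner Anxa2 differed by -0.20 (SE 0.16, adjusted p = 0.380). None of the 3 protease activated receptors tested passed. The thrombin receptor F2r was nearest at 0.69 (SE 0.30, adjusted p = 0.105), followed by F2rl1, the receptor that tissue factor with factor VII can activate, at 0.22 (SE 0.20, adjusted p = 0.465). Of 5 genes of the vitamin K cycle and Gla proteins, Gas6, a Gla protein that binds the TAM receptors, was lower by -0.90 (SE 0.28, adjusted p = 0.0294), where 10.9% of all genes were lower.

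**Figure D5:**
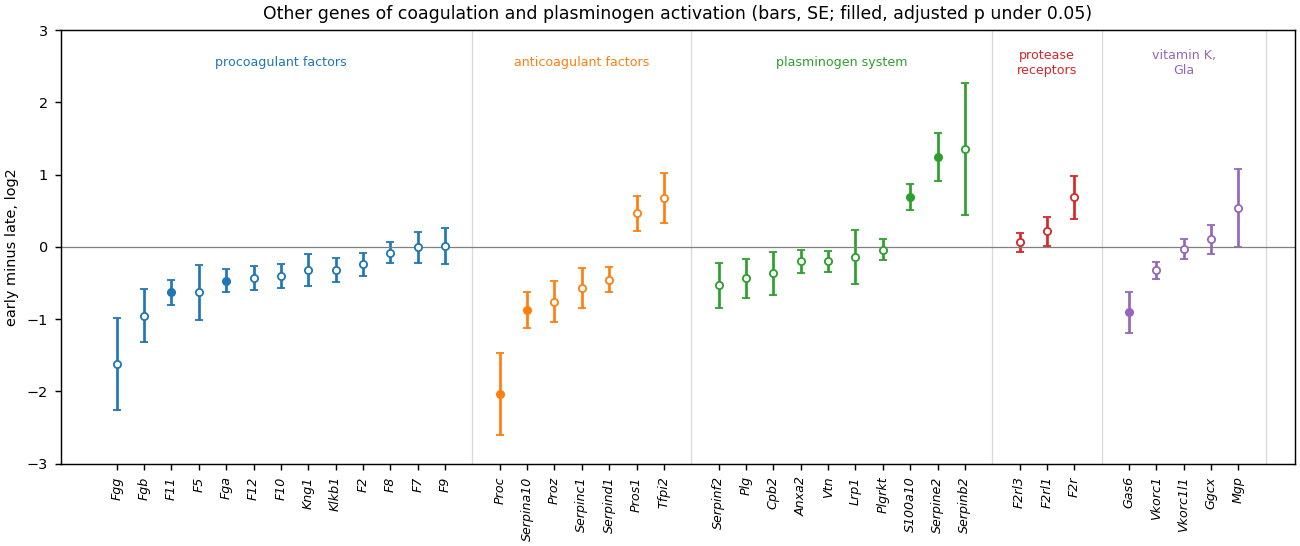
Early minus late difference in log2 units (y axis) of other coagulation and plasminogen genes tested (x axis), grouped by list, with limma standard errors as bars and filled points where the adjusted p was under 0.05. Proc falls furthest among filled genes (-2.03) and Serpine2 rises furthest (1.25).

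Within HFD, 2 of these 39 genes were higher and 11 lower in early tumors, where 13.1% of all genes passed and 7.33% were lower, with a median of -0.51 against -0.09 over all genes. Among the 11 were Serpinc1 (antithrombin), at -1.40 (SE 0.22, limma, adjusted p = 0.00137), and Plg (plasminogen), at -1.07 (SE 0.26, adjusted p = 0.0131), both made mainly in liver. Of the 6 markers of hepatocytes, 3 were lower in the same comparison. Their mean was -5.96 to -5.26 in early and -4.84 to -4.38 in late HFD tumors, far below the reference, and their part in these counts was not tested. Early and late HFD tumors were also on different slides, so onset and slide cannot be told apart in these counts. Within HFD-LFD 0 of 39 passed, and the difference between the changes passed for 0, against 0.836% and 0% of all genes. Between the late diets the counts were 0 for HFD against LFD, 0 for LFD-HFD against LFD and 1 for HFD-LFD against LFD. The gene was Ggcx, the gamma-carboxylase, which was lower (-0.92, SE 0.17, limma, adjusted p = 0.0138). Over all genes 0%, 1.71% and 2.39% passed in that order of comparisons.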

How the data were processed

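The deposited intensity columns give, for each dye, a spot's mean signal, the median signal around it, and a background-subtracted signal, as the scanner software computed them. The deposited log10 values were its dye-normalized ratios of Cy5 to Cy3. The file headers name Agilent Feature Extraction 11.0.1.1, the submitters' processing notes 8.5.1.1. The study's own normalized values were not used here.

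Normexp (offset 50) was fitted on spots without an outlier flag in limma 3.58.1 (R 4.3.3), and ratios were normalized by loess within arrays. Rows whose band of 10 rows lay over 0.5 log2 units below the array's median ratio were set missing and not imputed. Probes with background-subtracted signal over 10 in each channel on at least 80% of arrays were kept, and the brightest stood for its gene. Of 39429 probes, 27234 were named through RefSeq by accession, 3576 by symbol, 565 by an older symbol, and 8054 kept the file's name. Probe positions are those of the files (mm9), and what part of a transcript each covers was not analysed here. Promoter windows came from RefSeq (GRCm38.p6), which held 5 of the 9 members.

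Early against late was fitted over 24 arrays, HFD against LFD over 14, and the other comparisons as contrasts of 6 group means, with Benjamini-Hochberg adjustment over 20940 genes and a threshold of 0.05. Correlations used permutation (100000 resamples, two-sided, exact below 9 tumors) in Python 3.11.15 with NumPy 2.4.6. Alternatives were no or another background correction, the scanner log ratio, median centring, the tumor channel alone, dimmed rows kept or imputed, other filters and probe rules, array weights, a variance trend, slide and session blocks, subsets of arrays, group means, an unadjusted p and each array left out. The test of every probe by itself was added after the data were seen.

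The members, lists and tests were chosen with earlier results of these data known. All 9 members, the list genes that passed between early and late tumors (or the 2 of smallest p in a list with none) and the 3 genes of highest r per member are named, except a few that are not reported here. On simulated data with 200 of 20940 genes changed by 2 log2 units, 96.5% were recovered for early against late, 87.5% for the HFD contrast and 79.5% for the HFD-LFD contrast. In that order, 7.66%, 5.91% and 3.64% of the calls were false. Smaller changes, such as that of Procr (-1.13), were not simulated. The number of arrays limits the precision, and between 66.1% and 89.2% of an array's spots exceeded background clearly in the dye of the tumor. Genes of the text outside that rule (Serpinc1, Plg, F7, Anxa2, Ggcx and the markers) were chosen after their values were seen.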

Additional observations from a re-analysis of the deposited data

Results flagged for a closer look

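The early HFD tumor MSU_163 stood apart from the other early tumors in F3. Its log2 ratio was 0.44, and the nearest of the other 5 was -1.73. For Vwf (-2.19) it was also the highest early tumor, though not by a gap of that size. The late HFD tumor MSU_86 stood apart in Thbd among 6 late HFD tumors, at -0.11 against -2.42 for the next. It also had the highest Procr (1.67), the highest squamous list mean (2.99) and the lowest luminal list mean (-1.80). In all, 32 sets of a gene in a group of 4 to 10 tumors were examined for a lone extreme value, and 2 were found, where chance gives about 1 in 20. Early tumors of both diets counted as 1 group for this.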

How the results depend on the processing

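F3 and Vwf were lower in early tumors in all 19 alternatives and passed in 18, all but slide as a fixed block, and they passed in each of 24 fits without 1 tumor (adjusted p at most 0.00968 and 0.0222, both without MSU_768). Procr passed in 13 of 19 and in all 24. It lost the call with median centring, dimmed rows kept, slide as a random (adjusted p = 0.0682) or fixed block, and within either scan session. Thbd passed in 4 of 19. The number of members called between early and late was 3. It was 0 with slide as a fixed block, 2 with dimmed rows kept, slide as a random block or within either scan session, 4 with normexp on all spots, array weights, session as a block, group means or an unadjusted p, and 3 to 4 when 1 tumor was left out. Within HFD it was 1, and 0 with median centring, the tumor channel alone, dimmed rows kept, no signal filter, slide as a random block or session 1 alone, 2 with normexp on all spots, 3 with session as a block or without the arrays with dimmed rows, 4 by unadjusted p, 5 with array weights, and 0 to 3 when 1 tumor was left out. Within HFD-LFD it was 0, and 2 by unadjusted p or array weights, 1 in session 2 alone, and 0 to 1 with 1 tumor left out. For late HFD against LFD it was 0, and 1 by unadjusted p and 3 with array weights, and for late LFD-HFD against LFD 0, and 1 by unadjusted p. Median centring moved the median of all genes between early and late from -0.06 to 0.21. Members that did not pass changed sign in some settings: Tfpi with normexp on all spots (-0.074), F13a1 (0.15) and Plaur (0.28) with median centring, Plat with array weights (-0.21), slide as a fixed block (-0.36), session 2 alone (-0.46) and without MSU_97, early HFD replicate 3 (-0.056, in a range up to 0.34 over the fits without 1 tumor), Plaur with slide as a fixed block (0.20) and F13a1 in session 1 alone (0.078). Of 36 pairs of members 3 passed, 6 with median centring and 1 with dimmed rows kept. Of 45 pairs with lists 7 passed, and 16 by Spearman's rho. The cause was not tested. Slide as a fixed block could not be fitted within HFD or for the difference between the onset changes. No paired analysis was possible because no label links tumors of different groups and replicate numbers only name them.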
